A study of Mus musculus with 7 samples.

Results

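The 10 genes Igf2, H19, Dlk1, Peg3, Mest, Plagl1, Cdkn1c, Grb10, Meg3 and Ndn are imprinted genes known for their roles in growth before birth. They were taken by symbol from the gene list of the deposited matrices, where each symbol names 1 of 32285 genes, and they are described here in fibroblasts, endothelium, mural cells and macrophages of the mouse heart. The study profiled single cells by 3' UMI sequencing after myocardial infarction (MI) or sham surgery in newborn and adult hearts, and in newborn hearts of a line labelled MerTK KO; Mertk encodes a receptor with which macrophages take up dying cells. The groups were WT 8 week MI, WT 8 week sham, Mertk KO P1 MI, Mertk KO P1 sham, WT P1 MI and WT P1 sham, where P1 is postnatal day 1 and WT is C57BL6/J. WT P1 MI had 2 libraries and every other group had 1. The labels do not give the time between surgery and harvest, the number or sex of the hearts in a library, the deleted part of Mertk, or whether the pair of WT P1 MI libraries is from different animals. Cells carrying CD45 were enriched and mixed back at a ratio of 2 to 1 with the rest, so the sizes of cell classes were set by the sort, and only levels within a class are compared.

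An imprinted gene is transcribed mainly from the copy inherited from 1 parent, because methylation marks placed in the germ line silence the other copy. Many imprinted genes are active in the fetus and the newborn and decline as growth slows after birth. Paternally expressed genes such as Igf2 tend to promote growth, while maternally expressed genes such as H19, Cdkn1c, Grb10 and Meg3 tend to restrain it. In the heart, Igf2 is known as a growth factor made by the epicardium, endocardium and stroma during development.

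Some of the genes lie close together in the genome (GRCm38, GENCODE vM21). H19 (chr7:142575529-142578143, minus strand), Igf2 (chr7:142650766-142666816, minus strand) and Cdkn1c (chr7:143458339-143461050, minus strand) share the distal end of chromosome 7, while Peg3 (chr7:6703892-6730431, minus strand) and Ndn (chr7:62346569-62350262, plus strand) lie elsewhere on it. Dlk1 (chr12:109452823-109463336) and Meg3 (chr12:109541001-109571726) are neighbours on the plus strand of chromosome 12. Mest (chr6:30723547-30748465, plus strand), Plagl1 (chr10:13060504-13131694, plus strand) and Grb10 (chr11:11930508-12038683, minus strand) stand alone. Mest overlaps Copg2 on the opposite strand, and no source used here says whether the counting used strand; over all cells Copg2 had 4250 UMIs, against 53998 for Mest. Igf2 likewise overlaps Igf2os, with 190 UMIs against 45611 for Igf2.

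Genes at these loci carry microRNAs inside them, which a 3' count of host transcripts does not measure. The 9 mature sequences annotated within Mest, H19, Igf2 and Meg3 are shown because they lie inside these hosts. Whether they were made in these cells was not measured. Capitals mark the seed, bases 2 to 8, which pairs with targets, and no seed was shared between hosts or arms. The first pair lies in Mest, the next in H19, the third in Igf2 and the last 3 in Meg3 (RefSeq, GRCm38.p6).
mmu-miR-335-5p: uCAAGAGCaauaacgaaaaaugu
mmu-miR-335-3p: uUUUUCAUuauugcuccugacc
mmu-miR-675-5p: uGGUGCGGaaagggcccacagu
mmu-miR-675-3p: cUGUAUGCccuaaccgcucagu
mmu-miR-483-5p: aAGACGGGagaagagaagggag
mmu-miR-483-3p: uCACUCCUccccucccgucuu
mmu-miR-1906: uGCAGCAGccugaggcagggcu
mmu-miR-770-5p: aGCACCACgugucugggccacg
mmu-miR-770-3p: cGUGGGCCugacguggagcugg

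Plagl1 is a zinc finger transcription factor that binds GGGGCCCC, a motif that reads the same on both strands, and it is known as a regulator of other imprinted genes. RefSeq promoter windows from 250 bases before to 50 bases after a start were matched for 8 of the 10 genes, 15 windows in all. The motif stood in 1 of them, a window of Peg3 with 13 CpG dinucleotides, against 1.08% of all 32851 mouse windows, whose median was 7 CpG. The window, chr7:6730370-6730669 on the minus strand (GRCm38.p6), is shown because Peg3 and Plagl1 were both lower at 8 weeks in fibroblasts and endothelium; capitals mark the motif, and a match of letters is not a binding site.
Peg3 promoter: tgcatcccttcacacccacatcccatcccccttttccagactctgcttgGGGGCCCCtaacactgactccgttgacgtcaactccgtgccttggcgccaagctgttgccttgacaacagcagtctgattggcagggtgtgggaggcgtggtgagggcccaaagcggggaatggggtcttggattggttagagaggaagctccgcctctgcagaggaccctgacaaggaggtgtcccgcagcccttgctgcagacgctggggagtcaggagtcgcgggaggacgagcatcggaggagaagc

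The 7 libraries held 7707724 to 130847840 UMIs and 767 to 13306 kept cells. In the order WT 8 week MI, WT 8 week sham, Mertk KO P1 MI, Mertk KO P1 sham, WT P1 MI replicate 1, WT P1 MI replicate 2 and WT P1 sham, which is kept for every list of 7 values below, they gave 167, 1487, 555, 676, 223, 2934 and 332 fibroblasts and 57, 2113, 183, 240, 155, 2446 and 268 endothelial cells. Mural cells were few, 4 to 430 a library, and macrophages were 60 to 1639. Levels are counts per 1e+06 UMIs of the class in a library (CPM), and a level of 3 UMIs, the limit that a count of 0 allows, was 4.15 CPM in fibroblasts and 25.2 CPM in endothelium of WT 8 week MI, the shallowest library. Intervals and this limit cover counting error only. Each class carried its own markers, but in WT 8 week MI the endothelium also held erythroid markers at 9495 CPM, against 6.79 to 315 CPM elsewhere, its fibroblasts held macrophage markers at 598 CPM, against 54.0 to 73.4 CPM, and its 4 mural cells had more fibroblast markers (14198 CPM) than mural ones (11172 CPM). Mertk itself stood at 15.4 and 44.4 CPM in macrophages of the Mertk KO P1 libraries, against 26.2 to 72.7 CPM in the WT libraries; with 3' counts and the deleted part not stated, this checks nothing.

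Between P1 and 8 weeks most of these genes were lower in the stroma and endothelium, by amounts that ran from 1.57-fold for Grb10 to 145-fold for Igf2 between the sham fibroblasts. In fibroblasts 8 of the 10 lay lower in both 8 week libraries than in all 5 P1 libraries, as did 15% of all genes, and in endothelium 8 of the 10 did, as did 12.9% of all genes. For 3 of those 8, Dlk1, Meg3 and Ndn, WT 8 week MI endothelium had 0 UMIs with a limit of 25.2 CPM, which lies above their level in WT P1 MI, so for them that library decides nothing. For Dlk1 the limit of WT 8 week sham, 0.487 CPM, also lies above the lowest P1 level of 0.418 CPM. H19 and Grb10 overlapped in fibroblasts, and Cdkn1c and Grb10 overlapped in endothelium. In macrophages 1 of the 10, Peg3, did so, beside 12.2% of all genes. Over all libraries, in a fit of age, surgery and genotype together, edgeR's quasi-likelihood test (Benjamini-Hochberg adjusted p under 0.05 and a change of at least 2-fold) called 5 of 10 lower at 8 weeks in fibroblasts, against 3.83% of all 14254 genes tested, and 5 of 10 in endothelium, against 2.13% of 12416. The median log2 fold change of the 10 was -2.63 in fibroblasts, where that of all genes was -0.06, and -2.54 in endothelium, where it was -0.05. Leaving out WT P1 MI replicate 1 lowered the fibroblast count to 2, and leaving out WT 8 week MI raised it to 8. Both 8 week libraries had almost no Xist (0 and 0.0368 CPM over all cells), against 46.4 to 936 CPM in the 5 P1 libraries, so age and the sex makeup of the libraries cannot be told apart. The p-values rest on the spread between these libraries, which may be technical, and the fit by group takes each lone library to vary as the 2 WT P1 MI libraries do.

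**Figure D1:**
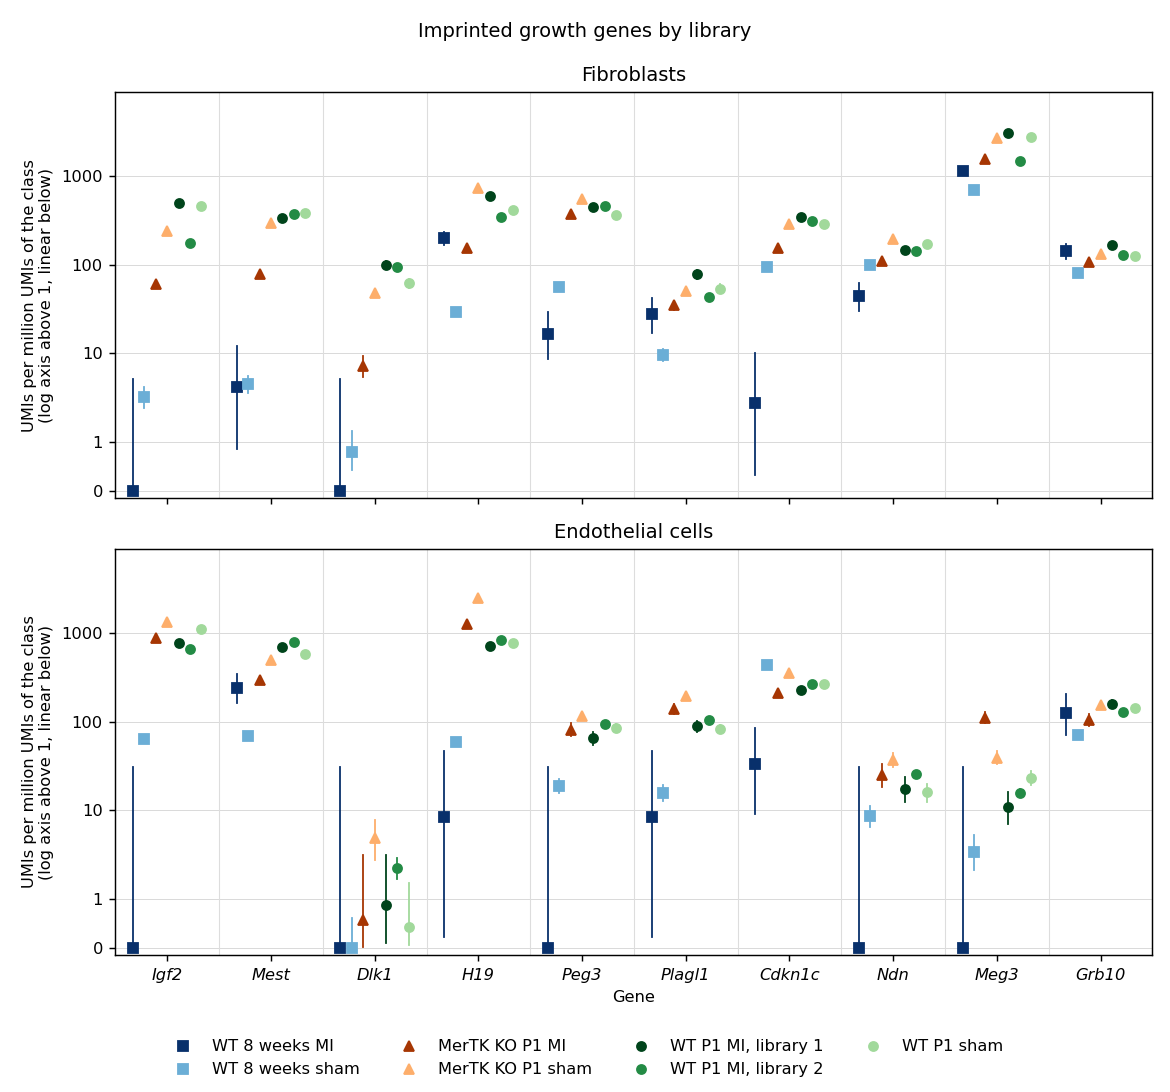
Levels of the 10 genes in fibroblasts and endothelial cells of each library, in CPM on an axis that is logarithmic above 1 and linear below; points are single libraries and bars are exact Poisson 95% intervals, which cover counting error only. The 8 week points lie below the P1 points for 8 genes in each class. For Dlk1, Meg3 and Ndn in endothelium WT 8 week MI had 0 UMIs, where the limit used in the text, 3 UMIs, is 25.2 CPM. Grb10 overlaps in both classes.

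Igf2, the fetal growth factor that signals through the IGF1 receptor, was nearly absent from adult fibroblasts. Its level was 0, 3.20, 60.7, 243, 496, 179 and 465 CPM, so both 8 week libraries lay below every P1 library, the lowest of which was Mertk KO P1 MI. Against WT P1 sham, WT 8 week sham was 145-fold lower (log2 -7.17, counting interval -7.59 to -6.81). Over all libraries Igf2 fell by 7.69 ± 0.78 on the log2 scale (SE, edgeR adjusted p = 0.00235), and it passed in all 15 alternatives, with adjusted p up to 0.0238. With no UMI in fibroblasts of WT 8 week MI, its limit of 4.15 CPM there was 81.3-fold below the mean of WT P1 MI. That mean, 338 CPM, joins libraries at 496 and 179 CPM, so the fold holds for the mean only.

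The share of cells with the transcript was lower too. With every fibroblast thinned to 1500 UMIs, 0 and 0.811% of the 8 week fibroblasts had an Igf2 UMI, against 10.3% to 34.5% in the P1 libraries. Of the 163 thinned fibroblasts of WT 8 week MI none had 1, which allows a share of up to 1.84%. Without thinning the shares were 0 and 3.03% at 8 weeks, against 20.5% to 65.7% at P1. In WT 8 week sham, B cells and T cells, which should lack the transcript, had 0 of 3159 and 0.0526% with an Igf2 UMI after thinning, at medians of 2652 and 4704 UMIs before it, where all fibroblasts of that library had 8837. The fibroblast share there lay above that of these cells. In the P1 libraries B cells and T cells reached 1.89% and 1.85%.

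Mest, which encodes a hydrolase-like protein of mesoderm, stood at 4.15, 4.49, 79.2, 301, 335, 375 and 385 CPM in fibroblasts. The 8 week libraries were again below all P1 libraries, and Mertk KO P1 MI was the lowest of the P1 group. WT 8 week sham was 85.7-fold below WT P1 sham (log2 -6.41, interval -6.76 to -6.10), and the fall over all libraries was -6.68 ± 0.57 (SE, edgeR adjusted p = 0.00124). It passed in all 15 alternatives. The share of thinned fibroblasts with a Mest UMI was 0.613% and 0.743% at 8 weeks, against 16.8% to 40.0% at P1.

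Dlk1, a membrane protein related to Notch ligands that holds back differentiation, was at 0, 0.786, 7.26, 47.7, 100.1, 94.0 and 61.8 CPM in fibroblasts. Both 8 week values lay below the P1 range, whose low end was again Mertk KO P1 MI. WT 8 week sham was 78.6-fold below WT P1 sham (log2 -6.25, interval -7.18 to -5.53). Over all libraries the change was -7.30 ± 1.00 (SE, edgeR adjusted p = 0.00604), with adjusted p up to 0.0516 over the alternatives, the highest without WT P1 MI replicate 1. In endothelium Dlk1 did not exceed 4.81 CPM in any library.

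The pair of zinc finger factors was reduced less. Peg3, which acts in growth and p53-linked cell death, had 16.6, 56.2, 378, 550.2, 455, 468 and 368 CPM in fibroblasts, and the groups did not overlap. It was 6.54-fold lower in WT 8 week sham than in WT P1 sham, and over all libraries the change was -3.61 ± 0.54 (SE, edgeR adjusted p = 0.00772, up to 0.0577 over the alternatives, the highest without WT P1 MI replicate 1). Plagl1 had 27.7, 9.65, 35.0, 51.0, 78.4, 42.9 and 53.9 CPM, with WT 8 week MI close to Mertk KO P1 MI. Its change was -1.85 ± 0.43 (SE, edgeR adjusted p = 0.0353), a call that 9 of 15 alternatives kept, with adjusted p up to 0.146. WT 8 week sham was 5.58-fold below WT P1 sham for Plagl1. After thinning, 1.23% and 9.86% of the 8 week fibroblasts had a Peg3 UMI, against 40.5% to 46.3% at P1.

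The inhibitors of growth signalling differed from each other. Cdkn1c, the CDK inhibitor p57, had 2.77, 94.0, 154, 292, 349, 312 and 288 CPM in fibroblasts, where the lowest value, in WT 8 week MI, was 2 UMIs. WT 8 week sham was 3.07-fold below WT P1 sham, and over all libraries the change of -3.14 ± 0.90 (SE, edgeR adjusted p = 0.0657) did not pass. Grb10, an adaptor that damps insulin and IGF receptor signalling, had 143, 80.5, 108, 133, 169, 129 and 127 CPM. WT 8 week MI lay inside the P1 range, and only WT 8 week sham lay below it, 1.57-fold under WT P1 sham. Its change over all libraries was -0.33 ± 0.28 (SE, edgeR adjusted p = 0.463).

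The long noncoding RNAs stayed readable in adult fibroblasts. Meg3, the maternally expressed partner of Dlk1, had 1156, 711, 1553, 2744, 3111, 1506 and 2801 CPM, and both 8 week values lay below the P1 range, though close to WT P1 MI replicate 2. WT 8 week sham was 3.94-fold below WT P1 sham, and the change over all libraries was -1.40 ± 0.43 (SE, edgeR adjusted p = 0.083). After thinning, 62.6% and 43.1% of the 8 week fibroblasts had a Meg3 UMI, against 72.4% to 87.3% at P1. H19, expressed from the same enhancers as Igf2 but from the other parental copy, had 199, 29.5, 153, 733, 606, 347 and 412 CPM. Here WT 8 week MI lay above Mertk KO P1 MI, WT 8 week sham was 14.0-fold below WT P1 sham (log2 -3.80, interval -3.94 to -3.67), and the change over all libraries of -2.13 ± 0.83 (SE, edgeR adjusted p = 0.141) did not pass. Ndn, a MAGE family protein that restrains cell growth, had 44.3, 98.6, 110.0, 194, 146, 142 and 174 CPM, and was 1.76-fold lower in WT 8 week sham than in WT P1 sham.

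What was left of Igf2, 57 UMIs in WT 8 week sham, and of H19 lay in different clusters of adult fibroblasts. The class fell into clusters named here by their leading genes, and the 10 genes were left out of the genes used to cluster. In WT 8 week sham the Gsn-led cluster held 77.5% of the fibroblasts with 96.5% of their Igf2 UMIs and 1.14% of their H19 UMIs. The Ccn5-led cluster, whose leading genes include Sfrp2 and Cthrc1, held 21.1% of the fibroblasts with 86.7% of the H19 UMIs and 63.2% of the Meg3 UMIs. H19 stood at 59.4 CPM in the Ccn5-led cluster and at 0.635 CPM, 6 UMIs, in the Gsn-led cluster. Igf2 stood at 0.260 CPM, 2 UMIs, and at 5.82 CPM in the same order. The Gsn-led cluster came almost wholly from WT 8 week sham, 1152 of 1155 cells, so a library and a cell state cannot be told apart for it.

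**Figure D2:**
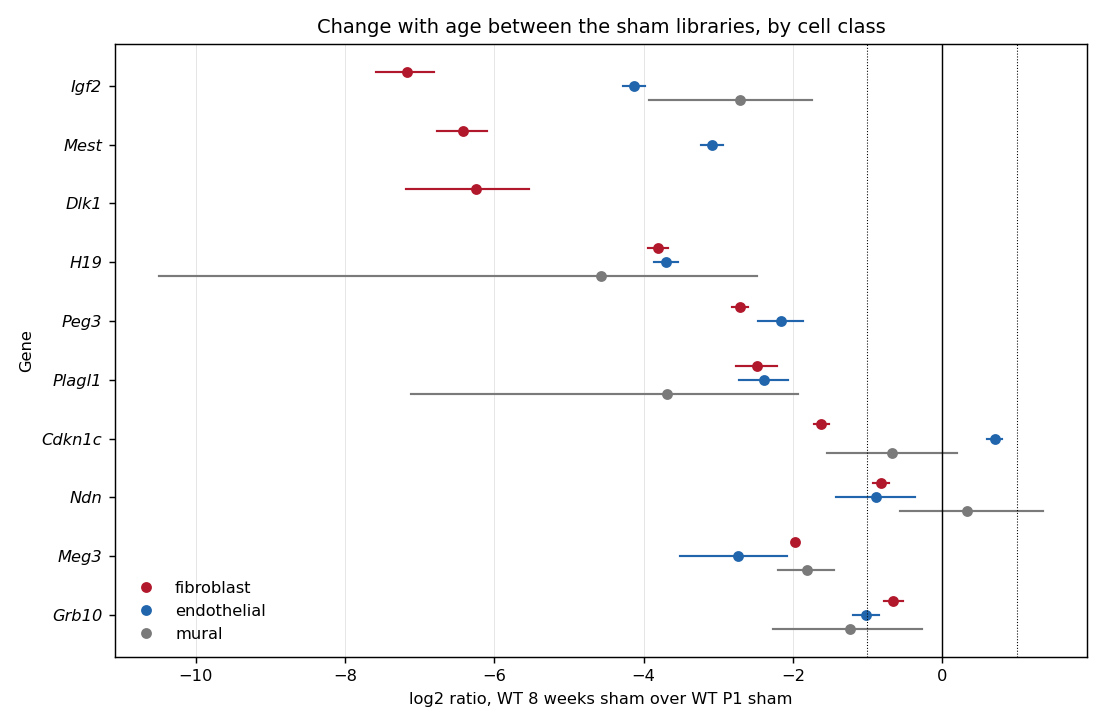
Log2 ratio of CPM in WT 8 week sham over WT P1 sham for the 10 genes in fibroblasts, endothelial cells and mural cells; bars are exact 95% counting intervals, 1 library stands on each side, and dotted lines mark 2-fold. In fibroblasts Igf2, Mest and Dlk1 lie at -7.17, -6.41 and -6.25, and Cdkn1c is on the positive side in endothelial cells, at 0.70.

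Between the shams alone, where there is 1 library a group and no test, 8 of the 10 genes were at least 2-fold lower at 8 weeks in fibroblasts, against 12.3% of genes with at least 20 UMIs. In endothelium 7 of 9 were, against 8.19%, and in mural cells 5 of 7, against 10.7%. After MI, the test by group called 8 of 10 lower at 8 weeks in fibroblasts, against 11.1% of all genes tested, and 6 of 10 in endothelium, against 2.56%. Grb10 passed in neither class. Peg3 was 27.8-fold lower in fibroblasts of WT 8 week MI than in WT P1 MI and Ndn 3.26-fold lower, while the WT 8 week MI values of Mest and Cdkn1c rested on 3 and 2 UMIs. In fibroblasts H19 (-1.33 ± 0.50, edgeR adjusted p = 0.0438) and Plagl1 (-1.19 ± 0.45, edgeR adjusted p = 0.0433) were near the threshold, and their adjusted p ranged from 0.0229 to 0.401 and from 0.0313 to 0.327 over the alternatives. The marker values given above for WT 8 week MI move with this contrast, and their part in it was not tested.

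In endothelium Igf2 and H19 had the largest ratios between the shams among the 9 genes with enough UMIs. Igf2 had 0, 63.5, 876, 1323, 785, 664 and 1108 CPM, and both 8 week libraries lay under every P1 library. WT 8 week sham was 17.4-fold below WT P1 sham, the change over all libraries was -4.67 ± 0.58 (SE, edgeR adjusted p = 0.0005), and it passed in all 17 alternatives. After thinning, 0 and 3.94% of the 8 week endothelial cells had an Igf2 UMI, against 40.7% to 51.6% at P1, with 36 of 57 and 563 of 2113 adult cells left out as too shallow. H19 had 8.39, 59.3, 1274, 2468, 717, 836 and 771 CPM, where the lowest value was 1 UMI and both Mertk KO libraries stood above the WT P1 libraries. The log2 ratio of WT 8 week sham over WT P1 sham was -3.70, and H19 fell over all libraries by 4.50 ± 0.53 on the log2 scale (SE, edgeR adjusted p = 0.000348), passing in all 17 alternatives.

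Mest had 243, 68.6, 292, 492, 698, 802 and 582 CPM in endothelium, with WT 8 week MI just under Mertk KO P1 MI. Its change over all libraries was -2.57 ± 0.46 (SE, edgeR adjusted p = 0.00565, up to 0.148 over the alternatives). Plagl1 had 8.39, 15.8, 139, 193, 88.6, 106 and 82.6 CPM, and fell by 2.73 ± 0.40 on the log2 scale (SE, edgeR adjusted p = 0.00147, up to 0.449). For both genes the 8 week libraries lay under every P1 library. Peg3 had 0, 19.01, 81.4, 115, 64.6, 94.5 and 85.2 CPM and fell by 2.50 ± 0.44 (SE, edgeR adjusted p = 0.00525, up to 0.288). Grb10, at 126, 70.0, 105, 153, 159.8, 129 and 142 CPM, overlapped between the ages, and its change was -0.89 ± 0.34 (SE, edgeR adjusted p = 0.16). Meg3 and Ndn were at 3.41 and 8.61 CPM in WT 8 week sham, against 10.9 to 111 CPM and 15.9 to 37.3 CPM at P1, and neither passed; 0 UMIs in WT 8 week MI allows up to 25.2 CPM of each.

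Cdkn1c was the 1 gene that stood higher in WT 8 week sham endothelium, at 434 CPM, than in WT P1 sham, at 267 CPM, a log2 ratio of 0.70 (counting interval 0.61 to 0.80). WT 8 week MI had 33.6 CPM, from 4 UMIs, the other P1 libraries had 212 to 354 CPM, and the ages overlapped. The change over all libraries was -0.57 ± 0.59 (SE, edgeR adjusted p = 0.657). Within clusters held by both shams the ratio often ran the other way. In the Cldn5-led cluster Cdkn1c was at 43.6 CPM in WT 8 week sham and 222 CPM in WT P1 sham, 5.10-fold lower, and in the Nts-led cluster it was 3.97-fold lower. In the Rbp7-led cluster it was at 349 CPM in WT 8 week sham and 200.03 CPM in WT P1 sham, with an interval of the log2 ratio from -0.43 to 2.33. Most of the adult endothelium, 1662 cells of WT 8 week sham, formed a Timp4-led cluster with Cdkn1c at 509 CPM, in which WT P1 sham had 3 cells. After thinning, 0 and 39.4% of the 8 week endothelial cells had a Cdkn1c UMI, against 21.6% to 28.9% at P1.

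H19 and Igf2 were concentrated in 1 endothelial cluster at both ages. Its leading genes were Ccl21a, known from lymphatic endothelium, Npr3, known from endocardium, Plvap and Vwf, and H19 and Igf2 themselves stood among its top 10 genes although they were not used to cluster. The cluster held 5.58% of the endothelial cells of WT 8 week sham with 99.7% of their H19 UMIs and 69.8% of their Igf2 UMIs, against 7.46% of the cells, 71.9% of the H19 UMIs and 57.6% of the Igf2 UMIs in WT P1 sham. Within it both genes were still lower in the adult. Igf2 was at 420 CPM in WT 8 week sham and 5954 CPM in WT P1 sham, 14.2-fold lower, and H19 at 559.9 CPM and 5164 CPM, 9.22-fold lower. The WT P1 sham side of these ratios is 20 cells. The lymphatic markers Mmrn1, Prox1 and Flt4 stood at 123, 25.5 and 73.1 CPM in all endothelium of WT 8 week sham, against 0.209, 12.1 and 49.8 CPM in WT P1 sham, and the part of such a difference in makeup in these ratios was not tested. Outside the cluster H19 was hard to find in the adult, with 0 UMIs in the 1662 Timp4-led cells of WT 8 week sham. It also had 0 UMIs there in the Cldn5-led and Rbp7-led clusters. The intervals of their log2 ratios to WT P1 sham reached up to -4.47 and -5.02. Mest showed another pattern, at 18.5 CPM in the Ccl21a-led cluster and 324 CPM in the Cldn5-led cluster of WT 8 week sham, the second 1.94-fold below WT P1 sham. Other genes of the Ccl21a-led cluster were also lower in WT 8 week sham than in WT P1 sham, Plagl1 by 3.95-fold, Grb10 by 3.64-fold, Cdkn1c by 3.43-fold and Peg3 by 3.10-fold. In the Stmn2-led cluster, whose genes include Gja4 and Gja5 of arteries, Cdkn1c was at 642 CPM in WT 8 week sham and 722 CPM in WT P1 MI replicate 2, whereas H19 was at 2.11 and 248 CPM and Mest at 8.43 and 172 CPM.

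**Figure D3:**
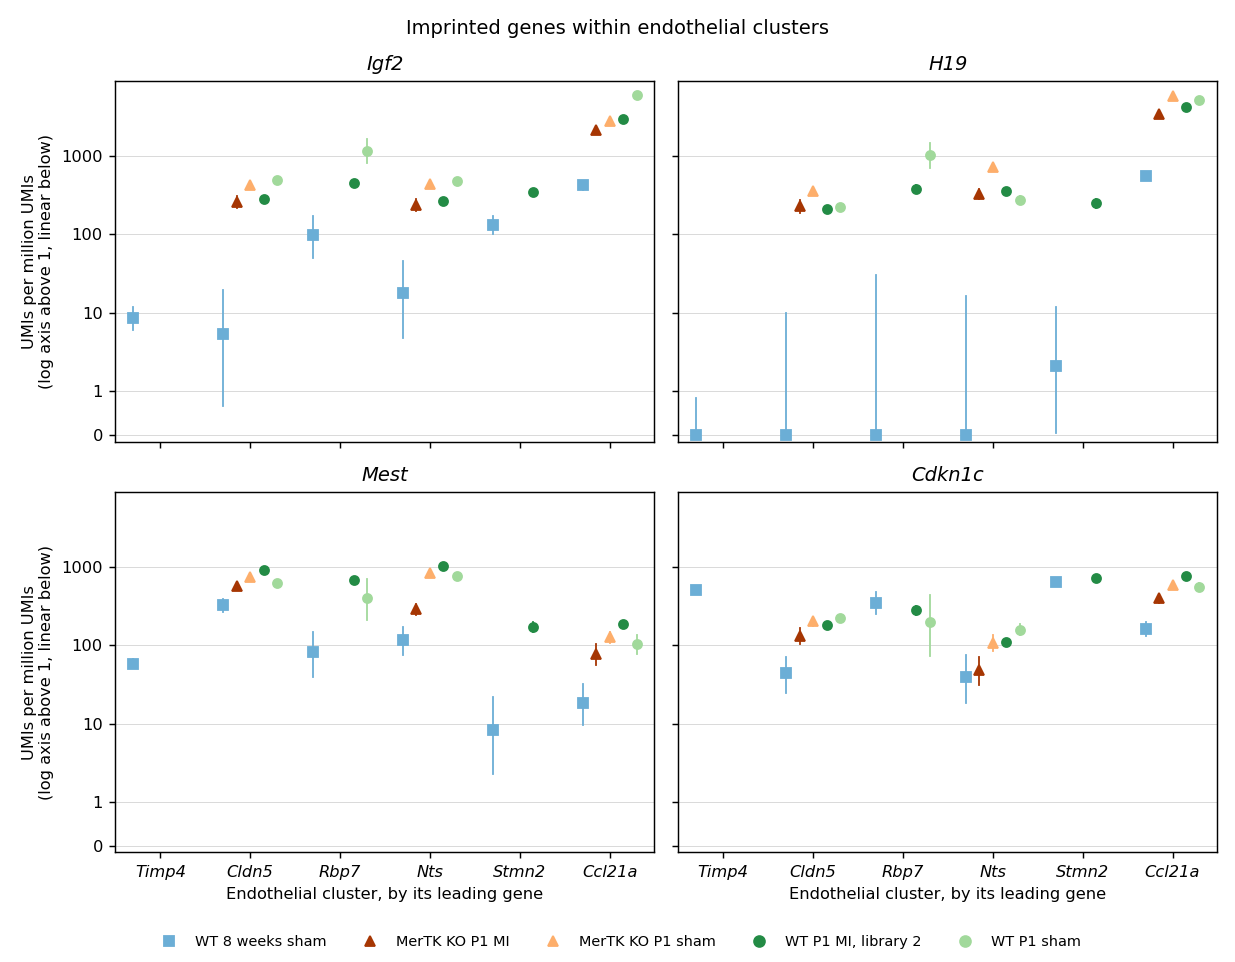
Levels of Igf2, H19, Mest and Cdkn1c in 6 endothelial clusters, named by a leading gene, for libraries with at least 20 cells in the cluster; points are single libraries in CPM. H19 of WT 8 week sham lies at 559.9 CPM in the Ccl21a-led cluster and at 0 in the Timp4-led and Cldn5-led clusters.

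In the mural cells, which join pericytes and smooth muscle, low cell numbers limited what could be read, and only the shams are compared. Igf2 was at 24.9 CPM in WT 8 week sham (104 cells) and 169 CPM in WT P1 sham (21 cells), a log2 ratio of -2.71 (interval -3.93 to -1.74). Endothelial markers in these mural cells stood at 2715 CPM in WT 8 week sham and 5825 CPM in WT P1 sham, against 646 to 1235 CPM in the other P1 libraries, and the Myh11-led cluster was 29.8% and 66.7% of the mural cells of the shams; their part in the ratios was not tested. Meg3 was at 219 and 772 CPM, 3.52-fold lower, and Grb10 at 39.9 and 94.9 CPM, 2.38-fold lower in WT 8 week sham. H19 and Plagl1 rested on 1 and 2 UMIs in WT 8 week sham, with log2 ratios of -4.57 (interval -10.49 to -2.48) and -3.69 (interval -7.12 to -1.93). Cdkn1c and Ndn had intervals that include 0. WT P1 MI replicate 2, with 430 cells the largest set of mural cells, had Igf2 at 37.6 CPM, H19 at 84.5 CPM, Dlk1 at 69.6 CPM and Mest at 63.3 CPM.

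Macrophages had little of any of the 10 transcripts. The highest level was 15.9 CPM, for H19 in WT P1 MI replicate 2, where B cells and T cells had 13.5 and 9.78 CPM of it. Igf2 there was at 7.86 CPM, against 9.68 and 9.78 CPM. The median of H19 over the P1 libraries was 8.83 CPM in macrophages, against 2.93 and 1.44 CPM in B cells and T cells. For Igf2 it was 2.21 CPM, against 2.66 and 1.71 CPM. Whether these counts are background was not tested. H19 had 0.485, 0.155, 0, 10.9, 8.83, 15.9 and 4.17 CPM. Cdkn1c had 8.68 CPM, 112 UMIs, in WT 8 week sham macrophages, above the 2.45, 4.29 and 3.84 CPM of B cells, T cells and neutrophils of that library. It was at 0.727 CPM, 3 UMIs, in WT 8 week MI, a log2 ratio of -3.36 (interval -5.88 to -1.99). The macrophages differed in makeup: 90.7% of those in WT 8 week MI were in a Gpnmb-led cluster and 87.7% of those in WT 8 week sham in an Ltc4s-led one, whereas 75.0% and 94.7% of those in the WT P1 MI libraries were in an Mrc1-led one, and the part of this in the ratios was not tested. Of 3 genes with enough counts to test, H19 (-4.39 ± 1.04, edgeR adjusted p = 0.00574) and Igf2 (edgeR adjusted p = 0.0471) were lower at 8 weeks after MI, against 5.62% of 10044 genes. At 8 weeks H19 was at 0.155 to 0.485 CPM and Igf2 at 0 to 0.0775 CPM. The counts that let H19 and Igf2 be tested thus came almost wholly from P1, which favours a lower call. For that reason the share of these 3 genes cannot be set against that of all genes. Igf2 had no UMI in WT 8 week MI macrophages, at least 6.92-fold lower. Over all libraries edgeR called 0 of the 3, with 2 at an unadjusted p under 0.05 (H19 and Igf2), and DESeq2 called 1, H19. In fibroblasts and endothelium both genes were also lower in WT 8 week MI than in WT P1 MI.

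**Figure D4:**
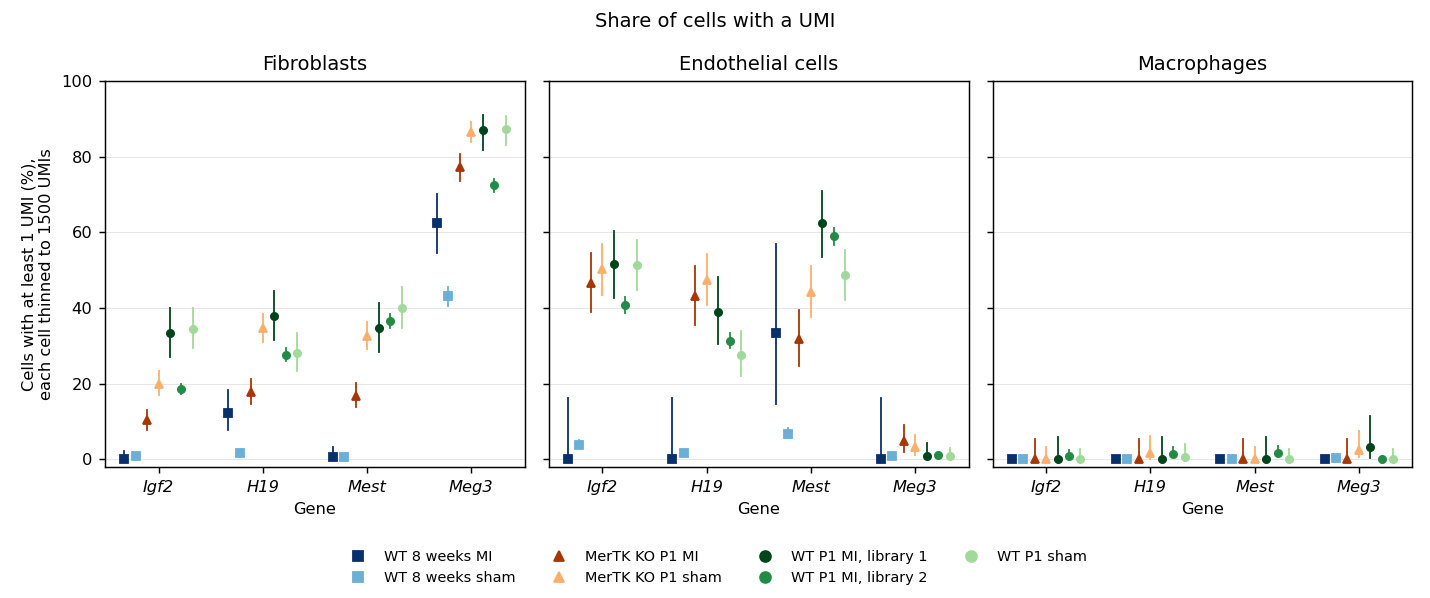
Percent of cells with at least 1 UMI of Igf2, H19, Mest or Meg3 after thinning each cell to 1500 UMIs, by library, in fibroblasts, endothelial cells and macrophages; bars are exact binomial 95% intervals. Igf2 was seen in 0 and 0.811% of the 8 week fibroblasts and in 10.3% to 34.5% of the P1 fibroblasts, and in at most 1.02% of macrophages.

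MI at P1 moved none of the 10 genes past the threshold. In fibroblasts edgeR's quasi-likelihood test called 0 of 10 between WT P1 MI and WT P1 sham, where 1.16% of all genes were called in either direction, and in endothelium 0 of 10, where 0.548% were. At an unadjusted p under 0.05 there was 1, Dlk1 in fibroblasts, and DESeq2 called 0 in either class. Dlk1 averaged 97.1 ± 4.30 CPM in fibroblasts of WT P1 MI (SD, n = 2) and had 61.8 CPM in WT P1 sham, a log2 fold change of 0.68 ± 0.34 (SE, edgeR adjusted p = 0.882). Igf2 averaged 338 ± 224 CPM in WT P1 MI and had 465 CPM in WT P1 sham, a difference smaller than the spread of the pair. In endothelium Igf2 averaged 724 ± 85.6 CPM in WT P1 MI and had 1108 CPM in WT P1 sham (log2 fold change -0.60, edgeR adjusted p = 1). A p that misses the threshold does not show that the levels were alike.

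At 8 weeks MI and sham were 1 library each, and no test was made. In WT 8 week MI, H19 stood higher in fibroblasts and Mest in endothelium, as did 15.9% and 21.1% of all genes by at least 2-fold. In fibroblasts 2 of 9 genes with enough UMIs were at least 2-fold higher in WT 8 week MI, against 15.9% of all genes, and 4 of 9 at least 2-fold lower, against 19.8%. The 4 include Igf2, whose ratio rests on 0 UMIs with an interval up to 0.72, so that 3 were measured as lower. H19 was at 199 CPM in WT 8 week MI and 29.5 CPM in WT 8 week sham, 6.75-fold higher (log2 2.76, interval 2.48 to 3.02), and Plagl1 was 2.87-fold higher. Cdkn1c was at 2.77 CPM, 2 UMIs, and 94.0 CPM (log2 -4.76, interval -8.13 to -3.23), Peg3 was 3.38-fold lower and Ndn 2.23-fold lower. Igf2 had 0 UMIs in WT 8 week MI and 3.20 CPM in WT 8 week sham, below the limit of 4.15 CPM, so no fold is given. In endothelium 1 of 9 was higher, against 21.1%, and 5 of 9 lower, against 18%, of which Peg3 and Ndn had 0 UMIs in WT 8 week MI and sham levels under its limit of 25.2 CPM, so that no difference can be read for them. Mest was at 243 CPM in WT 8 week MI and 68.6 CPM in WT 8 week sham, 3.55-fold higher (log2 1.85, interval 1.23 to 2.37). The endothelium differed in makeup, with 24.6% of cells in the Timp4-led, 10.5% in the Cldn5-led and 12.3% in the Nts-led cluster in WT 8 week MI, against 78.7%, 2.51% and 1.18% in WT 8 week sham. The Cldn5-led and Nts-led clusters, 6 and 7 cells, held 41.4% and 37.9% of the 29 Mest UMIs of WT 8 week MI. Cdkn1c was 12.9-fold lower, from 4 UMIs. Igf2 had 0 UMIs, against 63.5 CPM in WT 8 week sham, and the interval of its log2 ratio reached up to -1.03.

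The makeup of the fibroblasts differed between these 2 libraries. The Ccn5-led cluster was 86.2% of the fibroblasts in WT 8 week MI, with 93.8% of their H19 UMIs, and 21.1% in WT 8 week sham. Inside that cluster H19 was at 226 CPM in WT 8 week MI (144 cells) and 59.4 CPM in WT 8 week sham (314 cells), a log2 ratio of 1.93 (interval 1.64 to 2.21), smaller than the ratio over all fibroblasts. Cdkn1c was at 3.35 CPM, 2 UMIs, and 83.7 CPM there, and Meg3 at 1265 and 1043 CPM.

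The effect of MI differed between the ages for 2 genes in fibroblasts, against 6.47% of all genes in either direction and 1.8% higher. For H19 the difference of MI effects, 8 weeks minus P1, was 2.35 ± 0.71 on the log2 scale (SE, edgeR adjusted p = 0.0212, from 0.002 to 0.0535 over the alternatives). For Cdkn1c it was -5.49 ± 1.01 (SE, edgeR adjusted p = 1.29e-05), and all 5 alternatives kept it. In endothelium 1 of 10 differed, against 1.36% of all genes: Cdkn1c, at -3.89 ± 0.90 (SE, edgeR adjusted p = 0.00354, from 0.00159 to 0.402 over the alternatives). Each of these contrasts rests on the single WT 8 week MI library.

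In the Mertk KO hearts after MI, 4 growth genes were lower in fibroblasts. The test by group called 4 of 10 lower in Mertk KO P1 MI, set against WT P1 MI, beside 5.55% of all genes: Dlk1 (-3.60 ± 0.42, edgeR adjusted p = 1.04e-15), Igf2 (-2.30 ± 0.47, edgeR adjusted p = 3.63e-05), Mest (-2.03 ± 0.47, edgeR adjusted p = 0.000337) and H19 (-1.48 ± 0.49, edgeR adjusted p = 0.0252). Dlk1 was at 7.26 CPM in Mertk KO P1 MI, against 97.1 ± 4.30 CPM in WT P1 MI (SD, n = 2). Igf2 was at 60.7 CPM, against 338 ± 224 CPM, where the lower WT library was at 179 CPM. Mest was at 79.2 CPM, against 355 ± 28.4 CPM, and H19 at 153 CPM, against 477 ± 184 CPM. The other 6 had log2 fold changes between -0.96 and -0.15 and did not pass. The adjusted p of these calls reached 0.237 for Dlk1 and 0.996 for the other 3 over the alternatives.

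In the shams, with 1 library a genotype and no test, none of the 4 stood apart by 2-fold over all fibroblasts. Between Mertk KO P1 sham and WT P1 sham, 0 of 10 genes differed by 2-fold in fibroblasts, against 8.08% of all genes, with log2 ratios from -0.94 for Igf2 to 0.83 for H19. Within the knockout, the MI library was at least 2-fold below the sham for 4 of 10, against 11.8% of all genes: Dlk1 (log2 ratio -2.70), H19 (-2.26), Igf2 (interval -2.14 to -1.86) and Mest (-1.93). The MI effect differed between the genotypes for 1 of 10, against 1.17% of all genes. That was Dlk1, at -3.16 ± 0.55 (SE, edgeR adjusted p = 3.69e-06, up to 1 over the alternatives).

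The fibroblasts of Mertk KO P1 MI were made up differently. The Nrk-led cluster was 22.5% of them, the Serpina3n-led cluster 44.3% and the Prc1-led cluster, which carries mitotic genes, 22.3%, against 63.7% and 58.5%, 7.17% and 6.48%, and 8.97% and 8.18% in the WT P1 MI libraries. Within the Nrk-led cluster alone the log2 fold changes were -0.33 for Igf2, -0.34 for Mest and -0.13 for H19 (edgeR adjusted p = 0.927, 0.927 and 0.979). There Igf2 was at 345 CPM in Mertk KO P1 MI, against 603 and 240.3 CPM in WT P1 MI, and Mest at 372 CPM, against 395 and 498 CPM. Dlk1 was at 32.4 CPM, against 58.9 and 109 CPM, a log2 fold change of -1.48 (edgeR adjusted p = 0.0833). Within the Ptn-led cluster alone only Dlk1 passed, at -2.32 (edgeR adjusted p = 0.0317). In that cluster the shams also stood apart, with Dlk1 at 45.3 CPM in Mertk KO P1 sham and 188 CPM in WT P1 sham, 4.16-fold lower, and Igf2 at 149 and 387 CPM, 2.59-fold lower. In the Prc1-led cluster Igf2 was at 14.7 CPM in Mertk KO P1 MI, against 381 and 119 CPM in WT P1 MI, and Mest at 12.2 CPM, against 341 and 311 CPM. In the Serpina3n-led cluster, named for an acute-phase gene, H19 was at 112 CPM in Mertk KO P1 MI, against 391 CPM in WT P1 MI replicate 2, and Dlk1 at 4.17 CPM, against 73.9 CPM. Mertk KO P1 sham had 1096 CPM of H19 and 52.3 CPM of Dlk1 in the same cluster. Mest in that cluster was higher in Mertk KO P1 MI, at 76.6 CPM, than in Mertk KO P1 sham, at 41.0 CPM. In the Nrk-led, Ptn-led and Prc1-led clusters Mest was lower after MI, at 372, 84.5 and 12.2 CPM, against 464, 192 and 256 CPM. Igf2 was at 345 and 312 CPM in the Nrk-led cluster of Mertk KO P1 MI and sham, and lower after MI in the other clusters named here. Tcf21, a marker of cardiac fibroblasts, was at 45.2 CPM in this class of Mertk KO P1 MI, against 123 to 306 CPM in the other P1 libraries, and Xist over all cells at 46.4 CPM, against 342 to 936 CPM; their part in the result was not tested.

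**Figure D5:**
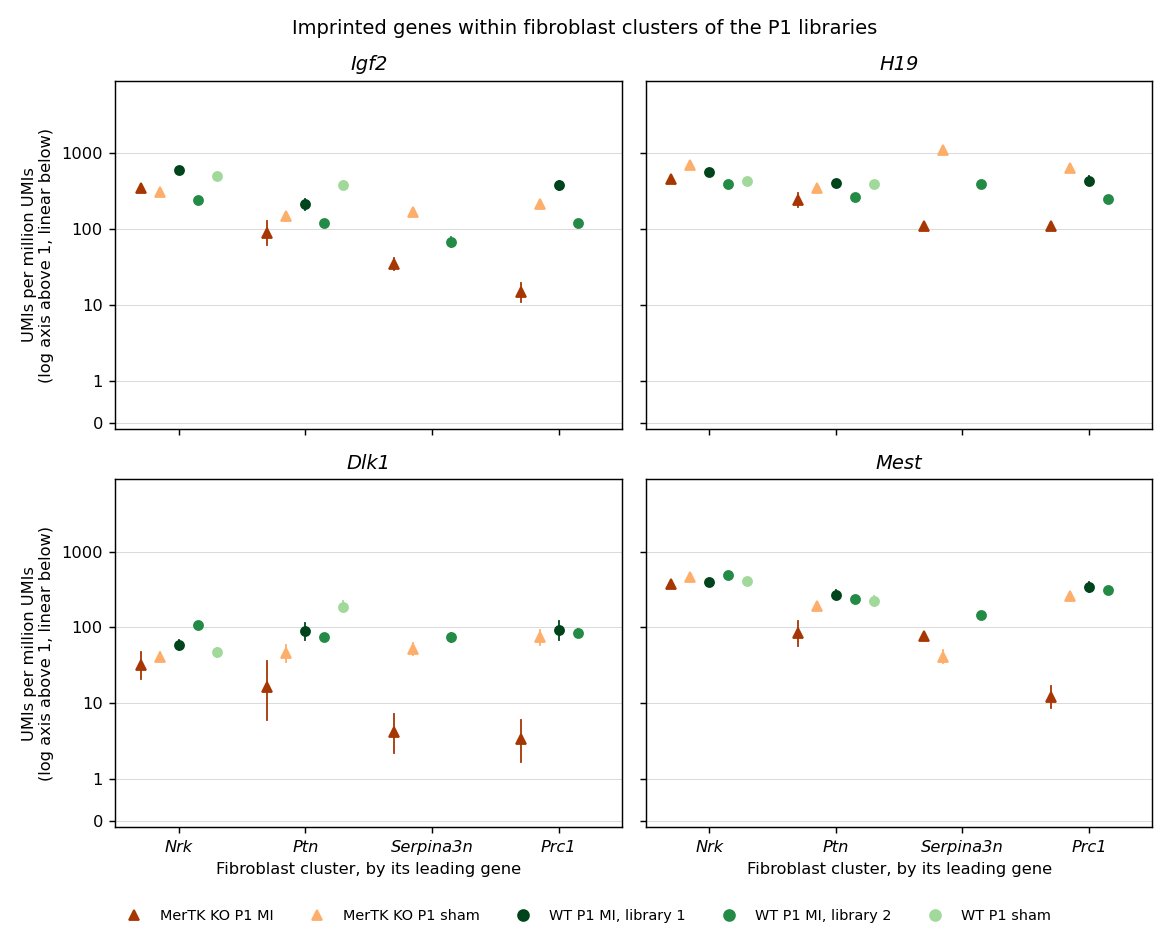
Levels of Igf2, H19, Dlk1 and Mest in 4 fibroblast clusters of the P1 libraries, named by a leading gene; points are single libraries with at least 20 cells in the cluster, in CPM. In the Prc1-led cluster Mertk KO P1 MI has Igf2 at 14.7 CPM and Mest at 12.2 CPM, below the other P1 libraries drawn, while in the Nrk-led cluster its Igf2, at 345 CPM, lies among them and its Mest, at 372 CPM, is the lowest of 5.

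In endothelium of the knockout, Meg3 after MI and H19 after sham surgery were higher, and most of their UMIs lay in 1 cluster. After MI 1 of 10 was called higher in Mertk KO P1 MI, set against WT P1 MI, beside 2.63% of all genes: Meg3, at 111 CPM, against 13.4 ± 3.47 CPM (SD, n = 2; log2 fold change 2.98 ± 0.35, edgeR adjusted p = 4.2e-15). Between the shams 3 of 9 were at least 2-fold higher in Mertk KO P1 sham, against 7.25% of all genes: H19 (3.20-fold), Ndn (2.35-fold) and Plagl1 (2.33-fold). Within the knockout Meg3 was 2.81-fold higher in the MI library, the 1 gene past 2-fold, against 3.51% of all genes. The MI effect differed between the genotypes for Meg3 alone, at 2.37 ± 0.55 (SE, edgeR adjusted p = 0.00469, up to 1 over the alternatives), against 0.524% of all genes. The Ccl21a-led cluster was 35.5% of endothelial cells in Mertk KO P1 MI and 22.1% in Mertk KO P1 sham, against 7.10% and 10.3% in WT P1 MI and 7.46% in WT P1 sham. In all endothelium the lymphatic markers Prox1, Mmrn1 and Flt4 stood at 32.8, 17.0 and 44.7 CPM in Mertk KO P1 MI. They were at 276, 128 and 147 CPM in Mertk KO P1 sham, against 12.1 to 19.5, 0 to 18.5 and 37.8 to 58.1 CPM in the WT P1 libraries. In Mertk KO P1 MI only Prox1 lay above the WT P1 range. Fibroblast markers in endothelium stood at 1026 CPM in Mertk KO P1 MI, against 432 to 584 CPM in the other P1 libraries. In the Ccl21a-led cluster they were at 2723 CPM in Mertk KO P1 MI and 2643 CPM in WT P1 MI replicate 2. The part of these markers in the result was not tested. The Ccl21a-led cluster held 94.9% of the Meg3 UMIs of Mertk KO P1 MI endothelium. Without it the log2 fold change of Meg3 was -0.34 (edgeR adjusted p = 0.884, within a range of 2.53e-15 to 0.884). Inside it Meg3 was at 327 CPM in Mertk KO P1 MI, against 45.1 CPM in WT P1 MI replicate 2. H19 inside it was at 5779 CPM in Mertk KO P1 sham and 5164 CPM in WT P1 sham. Outside it the shams stood further apart for H19. In the Nts-led cluster the knockout sham had 727 CPM and the WT sham 272 CPM (log2 ratio 1.42, interval 1.21 to 1.63). In the Cldn5-led cluster they had 353 and 223 CPM (log2 ratio 0.66, interval 0.48 to 0.84). With the Ccl21a-led cluster left out, 3 of 9 genes still rose by at least 2-fold between the shams, beside 398 of 10417 genes.

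Other imprinted genes that passed with age in fibroblasts were lower at 8 weeks. In fibroblasts over all libraries, where 3.83% of all genes were called lower, 7 of 16 other paternally expressed genes were called lower at 8 weeks by edgeR, among them Zdbf2 (log2 fold change -4.00), Nnat (-3.57) and Slc38a4 (-1.61), and 4 of 13 other maternally expressed genes, Ppp1r9a (-2.25), Asb4 (-4.09), Zim1 (-4.81) and Igf2r (-1.52), the receptor that clears Igf2. None was called higher. Their median log2 fold changes were -1.50 and -0.62. Of 11 fetal growth genes that are not imprinted, 4 were lower, Ezh2 (-1.98), Igf2bp3 (-2.03), Igf2bp1 (-4.40) and Sox11 (-6.58); the Igf2bp proteins bind Igf2 mRNA. Of 14 cell cycle genes 2 were lower, Mki67 (-2.53) and Top2a (-2.23). In endothelium 2 of 14 paternally and 2 of 11 maternally expressed genes were lower, against 2.13% of all genes, with median log2 fold changes of -0.69 and -0.37. Of 9 fetal growth genes that are not imprinted, 5 were lower in endothelium, with a median of -1.70. These were Ezh2 (-1.70), Igf2bp3 (-1.75), Hmga2 (-4.41), Sox11 (-6.65) and Igf2bp2 (-2.72). At P1, MI moved none of these lists' genes past the threshold. Between Mertk KO P1 MI and WT P1 MI fibroblasts, Sgce (-1.41), Peg10 (-1.67) and Zrsr1 (-1.68), 3 of 16 paternally expressed genes, were lower, against 5.55% of all genes. No maternally expressed gene of 13 passed, and 5 of 14 cell cycle genes were higher, against 6.95% of all genes. In endothelium of the same contrast Rian, transcribed from the same locus as Meg3, was higher (2.40).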

How the data were processed

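Hearts were digested and CD45-positive cells enriched before 10x Genomics 3' sequencing (v3 or v3.1 chemistry), per the labels' protocols. The deposited files are matrices of unnormalized UMI counts, which the authors made with Cell Ranger against GRCm38, per the submitters' processing notes. Per the file headers the version was 6.1.0 in WT 8 week sham and in replicate 2 of WT P1 MI, and 4.0.0 in the other 5 libraries. No sample-level doublet removal is stated in the sources used here.

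Kept barcodes had 500 UMIs and 300 genes or more, with mitochondrial UMIs at 15% or less. The highest Scrublet scores, 0.8% per 1000 barcodes of a library, were removed as doublets (6 to 2006 a library). Libraries shared at most 47 barcodes. Cells were clustered with scanpy 1.11.5 (2000 variable genes without imprinted genes, 30 principal components, 15 neighbours, Leiden resolution 1, seed 0) and clusters were named by marker lists. Clusters with markers of 2 classes stayed unnamed and unused. UMIs were summed per class and library, needing 30 cells to enter a fit, and tested with edgeR 4.0.16 in R 4.3.3 (quasi-likelihood, TMM, Benjamini-Hochberg over all genes tested): by group, and additively for age, surgery and genotype. Where 1 library faced 1, the log2 ratio of CPM (0.5 counts added to each) is given with an exact binomial interval, if both together had 20 UMIs; shares are after thinning to 1500 UMIs. Tests were checked on simulated counts with the same spread for all genes. The test of age after MI called 4% and 0% of 2-fold changes in fibroblasts and endothelium, and 70% and 46% of 8-fold changes. The additive fit called 14% and 6% of 2-fold changes, and 100% and 94% of 8-fold changes. A smaller change could thus easily be missed. DESeq2 1.42.0, no TMM, other filters and clusterings and left-out libraries were the alternatives. All 10 members are named. The members and lists were chosen with earlier results of these data known. Sequences are from RefSeq tables (GRCm38.p6).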

Additional observations from a re-analysis of the deposited data

Results flagged for a closer look

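In 5 cases the effect of MI differed between ages or genotypes by a test of the difference itself (edgeR's quasi-likelihood test, log2 scale). In fibroblasts H19 had a difference of 2.35 between MI effects at 8 weeks and at P1, with 199 and 29.5 CPM in WT 8 week MI and sham, against 477 ± 184 CPM (SD, n = 2) and 412 CPM in WT P1 MI and sham. Cdkn1c had a difference of -5.49 in fibroblasts and -3.89 in endothelium between the same effects, where WT 8 week MI gave 2 and 4 UMIs. Dlk1 in fibroblasts had a difference of -3.16 between the MI effects in the knockout and in WT, with 7.26 and 47.7 CPM in Mertk KO P1 MI and sham, against 97.1 ± 4.30 CPM and 61.8 CPM in WT P1 MI and sham. Meg3 in endothelium had a difference of 2.37, with 111 and 39.4 CPM in Mertk KO P1 MI and sham, against 13.4 ± 3.47 CPM and 23.2 CPM in WT P1 MI and sham.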

How the results depend on the processing

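Of 261 alternative values of counts and shares, 206 held and 55 moved; of the genes' own values 534 held, 37 gained and 55 lost a call, 3 moved and 7 reversed. No paired analysis was possible because the groups share fewer than 2 replicate numbers.
In fibroblasts, genotype after MI (4 genes) gave 0 with marker-positive cells or the Nrk-led cluster alone and 1 in the Ptn-led cluster; MI by age (2) gave 1 with no filter on low counts or no doublet removal; MI by genotype (1) gave 2 without TMM and 0 in marker-positive cells and both single clusters; age over all libraries (5) gave 8 by DESeq2, 9 unfiltered, and 2 to 8 leaving out a library.
In endothelium, age after MI (6) and over all libraries (5) gave 3 of 7 in marker-positive cells, the second 4 to 6 leaving out a library. Genotype after MI (1) gave 2 without TMM, 4 with clusters per library (H19 -1.86, Igf2 -1.64 and Plagl1 -1.75 lower), and 0 without the Ccl21a-led cluster or in the Cldn5-led one. MI by age (1) gave 0 in marker-positive cells; MI by genotype (1) gave 0 by DESeq2, with no doublet removal, clusters per library, without the Ccl21a-led cluster and in the Cldn5-led one.
In macrophages, age after MI (2) gave 0 by DESeq2 and 1 without TMM or with clusters led by macrophage markers; genotype after MI (0) gave 1 with clusters per library; age over all libraries (0) gave 1 by DESeq2, 2 unfiltered and 0 leaving out a library.
Of untested counts in fibroblasts, genotype between shams (0) gave 1 and MI in knockout (4) gave 2 in marker-positive cells; in endothelium MI in knockout (1) gave 6 with clusters per library; in mural cells genotype between shams (2) gave 1 and MI in knockout (0) gave 2 with no doublet removal. In macrophages age between shams (1) gave 0 with no doublet removal, clusters per library or marker-positive cells, MI at 8 weeks (1) gave 2 with no doublet removal and 0 with clusters led by macrophage markers, genotype between shams (1) gave 0 with no doublet removal or marker-positive cells, and MI in knockout (0) gave 3 with clusters per library. In the main macrophage counts 1 of 2 genes with enough UMIs was lower by age, beside 1492 of 11286 genes. For MI at 8 weeks 1 of 2 was lower, beside 3173 of 11424, and for genotype 1 of 2 was higher, beside 580 of 8521. For MI in knockout 0 genes had enough UMIs. In mural cells 2 of 7 were lower by genotype between shams, beside 378 of 3365 genes.
Unthinned, the shares with a UMI were 3.03% (Igf2) and 78.3% (Meg3) in fibroblasts and 5.77% (Igf2) in endothelium of WT 8 week sham, and 65.7%, 96.7% and 86.6% in WT P1 sham, with H19 at 66.0% in endothelium; at 1000 UMIs Meg3 was 33.2% in WT 8 week sham fibroblasts, and Igf2 25.4%, Meg3 81.0% and endothelial Igf2 42.2% in WT P1 sham.
Signs turned for endothelial Meg3, with genotype after MI at -0.34 without the Ccl21a-led cluster and -7.22 in the Cldn5-led one, and MI by genotype at -0.12 with clusters per library and -3.56 in the Cldn5-led one; for Cdkn1c over all libraries at 0.52 in endothelium with at least 1000 UMIs, and, leaving out a library, -3.14 (WT 8 week sham) to 0.53 (WT 8 week MI) in endothelium and -2.17 to 0.31 in macrophages. The cause was not tested.
Without TMM the median of all genes moved by up to 0.34 on the log2 scale (age after MI, endothelium); no age direction turned. Single clusters, the clusters led by macrophage markers and the left-out cluster were added after seeing the data. Depth limits WT 8 week MI most, with 57 endothelial and 4 mural cells.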

Other observations

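The genes whose log2(CPM + 1) over the 7 libraries followed the mean of the 10 most closely are given as a description, with no p, since all points share the same libraries and their depth. In fibroblasts, of 4133 genes above 50 CPM, they were Xist (Pearson r = 0.988), Cirbp (0.986), Taf1d (0.981), Sox4 (0.980), Maco1 (0.980), Polr2a (0.978), Ptger4 (0.977), Midn (0.977), Arhgap29 (0.975) and Fmr1 (0.974). In endothelium, of 4723 genes, Knop1 (0.996), Raly (0.995), Mki67 (0.991) and Tubb2b (0.991) led, followed by Tmem158, Col5a2, Vcan, Gnai2, Gata6 and Fbn1. Xist is the RNA that coats the silenced X in female cells, and Ddx3y, on the Y chromosome, was at 65.8, 69.0, 50.8, 0, 16.5, 14.9 and 83.4 CPM over all cells in the library order used above.

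In fibroblasts the effect of MI also differed between the ages for Zdbf2 (4.70), Rian (2.04) and Hmga1 (5.68), higher at 8 weeks than at P1 on the log2 scale, and for Airn (-2.57), while 8 of 14 cell cycle genes had a higher effect at 8 weeks, against 1.8% of all genes (edgeR's quasi-likelihood test). Between Mertk KO P1 MI and WT P1 MI fibroblasts the fetal growth genes that are not imprinted went both ways, with Arid3a (1.67), Hmga2 (2.17) and Igf2bp1 (1.30) higher and Mycn (-3.77) and Sox11 (-1.07) lower.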
